A study of Mus musculus with 24 samples.

Results

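The comparison described here is between the livers of mice in which Trib1 and Cebpa were both floxed, labelled DKO, and wild-type livers, labelled WT. Its members are the 6 DKO and 6 WT columns of an RNA sequencing table of 24 libraries, and the 19810 genes, of 54432 in the table, whose mean over the 24 libraries was at least 1 normalized count. All 24 mice were male C57BL/6 and received an intraperitoneal injection of an adeno-associated virus (AAV) that encodes Cre recombinase at 20 to 21 weeks of age, the WT mice included. DKO mice were Trib1;Cebpa Flox/Flox, and the 2 other groups used here for reference were Trib1 Flox/Flox (labelled Trib1-KO) and Cebpa Flox/Flox (labelled Cebpa-KO), with 6 mice each. Livers were taken 4 weeks after injection, at midday and after a 4 h fast, from mice kept on chow. Cre removes the DNA between a pair of loxP sites, and the promoter that drives it in this virus is not given in the sources used here. Whole liver was sequenced, so each value averages over all cells of the organ, whether or not Cre acted in them.

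C/EBPα, the product of Cebpa, is a basic leucine zipper transcription factor that is abundant in hepatocytes and is known to drive many genes of the mature liver, among them genes of glucose, nitrogen and lipid metabolism and of plasma proteins. Tribbles homolog 1, the product of Trib1, is a pseudokinase that holds C/EBPα against the ubiquitin ligase COP1, which marks it for destruction. The series concerns both genes in lipoprotein metabolism, and the comparison asks which transcripts differ when both are targeted.

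Values are estimated counts divided by a size factor per library and are called normalized counts. Library totals in the comparison were 23385900 to 26172100 normalized counts, from an estimated 21700900 to 34287100 reads, and 19931 to 21116 genes had a value above 0. Log2 differences are DKO minus WT of log2(value + 1), which understates changes of low genes, with the standard error after ±, and n is 6 libraries per group throughout. Adjusted p values come from limma with Benjamini-Hochberg adjustment over the 19810 genes, and genes under 0.05 are said to have risen or fallen. On the first principal component of the 12 libraries, which held 21.2% of the variance, the WT libraries lay between -34.7 and -21.1 and the DKO libraries between 24.0 and 33.1. The library WT B3 stood apart on the second component (13.0% of the variance) at 47.5. Where a result below was seen to rest on WT B3 the value without it is also given. DKO H2 and H3 lay on the same side of that component, at 26.8 and 24.5. Farthest on the other side were WT A1 and B1 at -25.0 and -25.6 and DKO G1, G3 and H1 at -21.0, -23.6 and -20.7.

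The targeted gene Cebpa (chromosome 7, 35119293 to 35121928, GRCm38) stood at 4264 at the lowest, 6144 at the median and 7412 normalized counts at the highest in WT, and at 58.1, 87.8 and 102 in DKO. The groups did not come near each other, and the difference was -6.18 ± 0.16 on the log2 scale (limma adjusted p = 6.91e-19). Trib1 (chromosome 15, 59648350 to 59657099) was much less clearly reduced. It stood at 874, 1249 and 1475 in WT and at 286, 769 and 1077 in DKO, so that the groups overlapped (-0.83 ± 0.24, limma adjusted p = 0.0408). That call was lost when any library other than WT B3, DKO H2 or DKO H3 was left out. It was also lost in a fit of only the 12 DKO and WT libraries, without a gene filter and without an intensity trend. Over all alternatives the limma adjusted p reached 0.0974. The Trib1 value of the Trib1-KO libraries went against their label, at a mean of 4237 ± 358 (SD) against 1224 ± 204 in WT, and in Cebpa-KO it was 333.2 ± 158. With 1 value per gene the table cannot show whether the floxed part of Trib1 was lost, so the groups are written as labelled.

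Of the other C/EBP genes, 2 rose in DKO and no further member fell among the 7 of the family tested. Cebpg, whose product dimerizes with other basic leucine zipper factors, stood at 927, 1155 and 1288 in WT and at 2649, 3072 and 3402 in DKO (1.41 ± 0.08, limma adjusted p = 2.08e-11). Cebpe, better known from granulocytes, stood at 99.9, 135 and 160 against 303, 344 and 391 (1.39 ± 0.13, limma adjusted p = 1.84e-07). For both genes every DKO library lay above every WT library. Cebpb, the C/EBP factor of the acute phase response, ranged from 227 to 729 in WT and from 477 to 908 in DKO and did not pass (0.42 ± 0.26, limma adjusted p = 0.448). In the list of Tribbles genes and the COP1 ligase complex, Trib1 and Trib3 were the 2 of 9 that passed, both lower. Trib3 stood at -0.66 ± 0.18 (limma adjusted p = 0.0303) and lost the call without WT A1, A2 or B1 or DKO G3, H1 or H3.

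**Figure D1:**
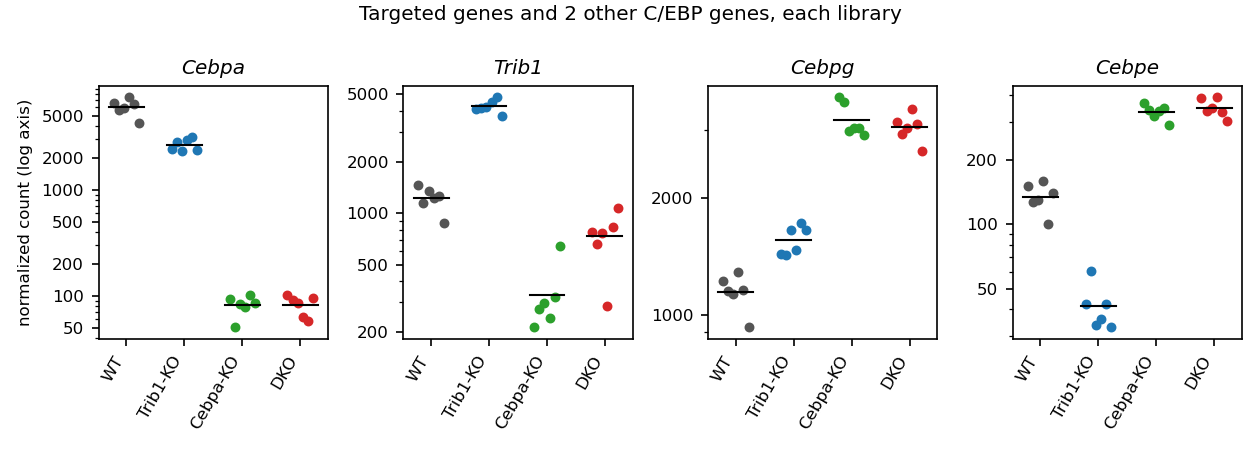
Normalized counts of 4 genes (log axis) in each of the 24 libraries, with points for libraries and a bar for the mean of each group as labelled. Cebpa lies at 58.1 to 102 in DKO against 4264 to 7412 in WT, Cebpg and Cebpe lie higher in DKO than in WT without overlap, and the Trib1 points of DKO and WT overlap.

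Across all genes, 563 rose (2.84% of the genes tested) and 643 fell (3.25%) in DKO. The split was 642 against 557 when libraries were scaled to equal totals, which turns the balance, and 418 against 741 when each was scaled to its total outside the major urinary protein family. A difference of at least 2-fold was reached by 146 of the risen genes (0.737% of those tested) and 254 of the fallen ones (1.28%), at least 4-fold by 46 and 80, and at least 8-fold by 12 and 29. The median log2 difference over all 19810 genes was 0.0032, and that of the called genes was 0.61 for those higher and -0.83 for those lower. All 6 DKO libraries lay above all 6 WT libraries for 308 genes (1.55%) and below them for 309 (1.56%), of which 259 and 268 were called. The shares of 2.84% and 3.25% are the background for the list counts below. Of the 1206 called genes, 1129 were among the 14526 tested genes with a mean of at least 10, so the share called is greater among abundant genes.

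Among the largest rises without overlap were 3 transcripts of an imprinted region of chromosome 12 that carries noncoding RNAs expressed from the maternal allele. Meg3 (109541001 to 109571726, GRCm38) stood at 64.3, 93.4 and 119 in WT and at 601, 1220 and 1364 in DKO (3.60 ± 0.22, limma adjusted p = 3.16e-11). Rian, which hosts small nucleolar RNAs, stood at 29.3, 44.2 and 66.4 against 393, 617 and 930 (3.87 ± 0.26, limma adjusted p = 2.14e-10). Mirg, a microRNA host, was close to 0 in WT, at 0 to 3.31, and reached 7.54 to 65.4 in DKO (2.92 ± 0.49). For each of these RNAs the lowest DKO library lay above the highest WT library, as the choice of genes without overlap required. Of the 13 tested members of the list of fetal liver genes that holds them, they were the 3 that rose, and 0 fell (1 without WT B2 or DKO G1 or H1).

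Apart from predicted genes and pseudogenes, the largest rise without overlap was that of Adam32, a member of the ADAM family best known from testis, with 0 to 7.9 normalized counts in WT and 37.2 to 62.3 in DKO (4.12 ± 0.46, limma adjusted p = 2.03e-06). Obp2a, an odorant-binding lipocalin, stood at 11.4, 26.4 and 36.9 in WT and at 169, 397 and 831 in DKO (3.97 ± 0.40). Smpdl3b, a sphingomyelin phosphodiesterase-like membrane protein, went from 4.54 to 13.2 in WT to 44.4 to 128 in DKO (3.23 ± 0.32). Ifi27l2b, an interferon-inducible gene, rose by 2.69 ± 0.24, the transporter gene Abcc12 by 2.73 ± 0.41, and the protocadherin gene Pcdh11x by 3.03 ± 0.39. Pde6c, which encodes a photoreceptor phosphodiesterase subunit, rose by 2.48 ± 0.42, the mesenchymal homeobox gene Prrx1 by 2.40 ± 0.34 and the C-type lectin gene Clec2h by 2.35 ± 0.30. These 9 genes, with the 3 transcripts of chromosome 12, all had a limma adjusted p of 0.000435 or less.

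Besides Cebpa, the largest falls without overlap included Mup7 and Mup18, which are taken up below, and genes of several other kinds. Asns, asparagine synthetase, stood at 141, 232 and 653 in WT and at 4.53, 12.5 and 41.4 in DKO (-4.13 ± 0.47, limma adjusted p = 2.28e-06). Susd4, a complement regulator of the cell membrane, stood at 690, 958 and 1097 against 50.7, 110 and 210 (-3.15 ± 0.25, limma adjusted p = 6.83e-09). Slc13a2, a carrier of citrate and related dicarboxylates, stood at 32.1, 62.2 and 141 against 0.812, 2.69 and 6.3 (-4.21 ± 0.37). In all of these the highest DKO library remained below the lowest WT library, as the choice of genes without overlap required. Abcd2, a peroxisomal fatty acid transporter, fell by 3.65 ± 0.49, and the metabotropic glutamate receptor gene Grm8 stood at -4.87 ± 0.41, Lrtm1 at -4.44 ± 0.51, the tubulin gene Tuba8 at -3.89 ± 0.44 and Fam83f at -3.28 ± 0.36. The monooxygenase gene Moxd1 was listed at 0 in all 6 DKO libraries and at 1.75 to 1116 in WT, so no fold is given.

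**Figure D2:**
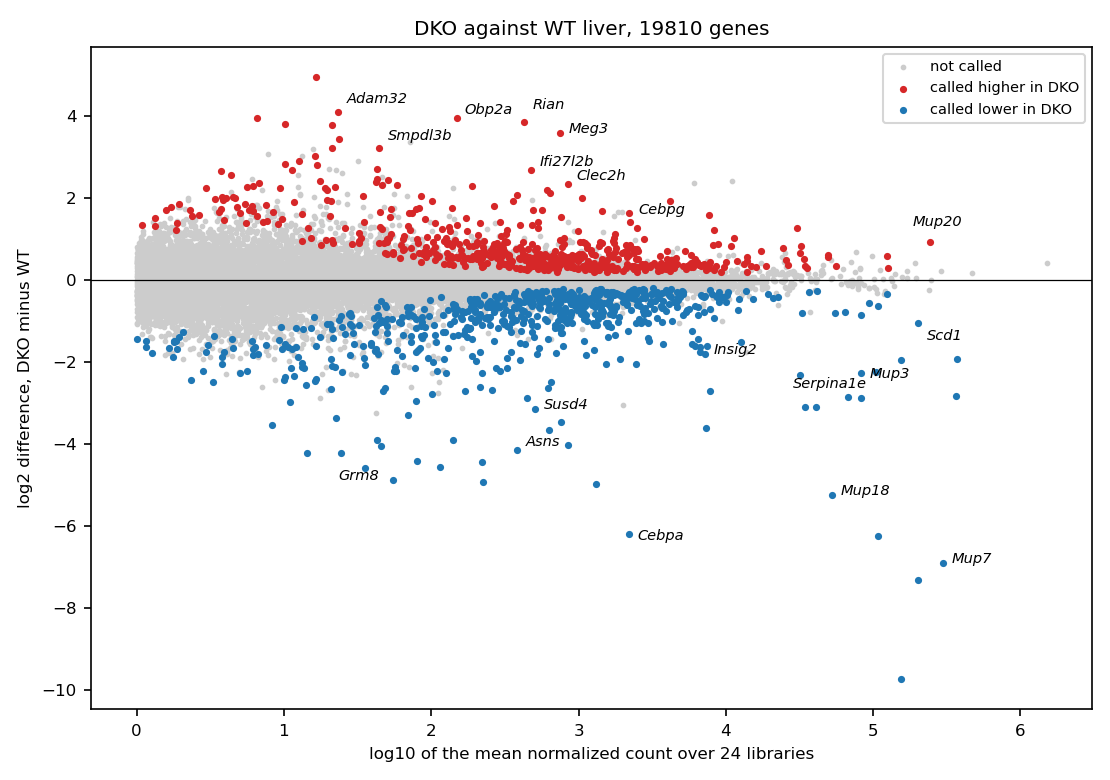
Log2 difference between DKO and WT (vertical axis) against the log10 mean normalized count over 24 libraries (horizontal axis) for the 19810 genes tested, with genes called higher in red, called lower in blue and others in grey. Cebpa (-6.18) and Mup7 (-6.89) lie lowest of the genes written in the plot, and 254 genes against 146 passed at 2-fold on the lower and higher side.

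Major urinary proteins (Mups) are small lipocalins that male mouse liver secretes in bulk and that carry pheromones in urine. Of the 22 tested, 20 fell and 1 rose, with a median of -2.76, against 3.25% and 2.84% of all genes. Mup3 stood at 95863, 154480 and 164340 in WT and at 18082, 29832 and 54094 in DKO (-2.27 ± 0.25, limma adjusted p = 1.26e-06). Mup7 stood at 30280, 339720 and 450220 against 206, 2290 and 14291 (-6.89 ± 0.81, limma adjusted p = 4.06e-06, and -7.47 without WT B3, its lowest WT library). Both show no overlap, although the spread within WT is wide for Mup7. Mup9 stood at -2.82 ± 0.38, Mup22 at -1.93 ± 0.30, Mup16 at -2.84 ± 0.46 and Mup18, which was 150 to 1337 in WT and 0 to 134 in DKO, at -5.24 ± 0.99. Mup17 (-6.23 ± 0.97) stood at 211 to 44787 in WT and 23.6 to 315 in DKO, which overlap.

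Mup20, which encodes the male pheromone darcin, was the exception in the family. It stood at 133930, 226930 and 267960 in WT and at 291560, 385480 and 562370 in DKO, every DKO library lying above the highest WT library (0.93 ± 0.22, limma adjusted p = 0.0123). Mup4, at 1.76 to 7.08 in WT and 0 to 4.06 in DKO, did not pass (limma adjusted p = 0.0918), but did without WT B3 (limma adjusted p = 0.0422) or without DKO H1. Reads of near-identical Mups can be split wrongly, so single members are uncertain and their sum was also taken. It took 7.02% of all values in WT (2.93 to 8.73%) and 2.79% in DKO (1.43 to 4.54%), a difference of -1.36 ± 0.34 on the log2 scale. In WT B3 the sum was 712600 normalized counts against 1526000 or more in the other WT libraries, and without it the difference was -1.61. As in all of these bulk samples, fewer cells that make a transcript and less transcript per cell cannot be told apart.

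The list of male-biased liver genes, which are usually higher in males under the pulses of male growth hormone, moved both ways. Of 25 tested, 9 fell and 8 rose (5 without DKO G3, and 5 in a fit of only the 12 libraries), with a median of 0.02. Several of the list are Mups. Cyp4a12a, an arachidonic acid hydroxylase, stood at 8668, 9661 and 12443 in WT and at 2043, 3892 and 4635 in DKO (-1.61 ± 0.21), and its neighbour Cyp4a12b fell by 2.04 ± 0.24. Elovl3, a fatty acid elongase, stood at 5472, 12495 and 17777 against 2570, 3714 and 4980 (-1.62 ± 0.22, limma adjusted p = 2.66e-05). Clec2h and Mup20, given above, are on the same list and rose. Of 23 female-biased genes 0 rose and 2 fell, with a median of -0.32. Those were Abcd2 and Cyp17a1, the steroid 17-hydroxylase gene, at 111, 184 and 514 in WT and 36.9, 50.5 and 137 in DKO (-1.82 ± 0.31). On the growth hormone axis 4 of 21 fell (2 in a fit of only the 12 libraries) and 0 rose (1 without WT A3 or DKO H2). Igfbp2 and Igfbp1, which encode binding proteins of insulin-like growth factors, stood at -0.99 ± 0.18 and -2.05 ± 0.41, while Igf1 itself, at 8532 to 10440 in WT and 9253 to 10981 in DKO, did not pass (0.03 ± 0.08, limma adjusted p = 0.907).

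Genes of cholesterol synthesis were lower in DKO. Of 20 tested enzymes of the pathway, 15 fell, 0 rose and 5 did not pass, and all 20 differences were below 0 (median -0.69, against 0.0032 over all genes). The 15 became 12 in a fit of only the 12 libraries, and 12 without WT A2, A3 or B2 or DKO G2 or G3. Without WT B3 or DKO H3, 16 fell. Sqle, squalene epoxidase, stood at 875, 1363 and 2096 in WT and at 206, 359 and 1236 in DKO (-1.78 ± 0.31, limma adjusted p = 0.000691). Its highest DKO library, H3, overlaps WT. Mvd, which decarboxylates mevalonate diphosphate, stood at 152, 290 and 380 against 83.8, 109 and 176 (-1.22 ± 0.21). Fdps, farnesyl diphosphate synthase, stood at -1.02 ± 0.19, Msmo1, a sterol methyl oxidase, at -1.01 ± 0.19, Hmgcs1, the cytosolic HMG-CoA synthase, at -0.92 ± 0.18 and Nsdhl, a sterol dehydrogenase, at -0.86 ± 0.16. All 6 had a limma adjusted p of 0.00167 or less, and each overlapped with WT in at least 1 library. For Mvd, Fdps and Nsdhl the overlap was with WT B3 alone, and without it the groups were separate. Sc5d, a late desaturase of the pathway, stood at -0.12 ± 0.09 and did not pass (limma adjusted p = 0.555).

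The DKO libraries did not share the lower sterol genes evenly. The median over the 20 genes, taken against the WT mean, was -1.12 in G1, -0.77 in G2, -1.03 in G3, -0.61 in H1, -0.55 in H2 and -0.26 in H3. In WT it ran from -0.40 in B3 to 0.23 in A3 and B2, so that H3 lay within the WT range. Without WT B3 the lowest WT median was -0.22, in B1, and H3 lay below it. In H3, 14 of the 20 genes were below the WT mean, against 19 in H1 and 20 in the other 4 DKO libraries.

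Cholesterol enzymes are driven by SREBP-2, which INSIG proteins hold back in the endoplasmic reticulum. Of 11 genes of this regulation 2 fell and 0 rose. Insig2 stood at 4153, 7037 and 9362 in WT and at 1583, 1947 and 2659 in DKO (-1.79 ± 0.16, limma adjusted p = 8.1e-08), with no overlap. Srebf2, the gene of SREBP-2, stood at 1022, 1156 and 1623 against 724, 840 and 1046 (-0.53 ± 0.15, limma adjusted p = 0.0319), a call lost without WT A2 or B2 or DKO G1, G2 or H1 (limma adjusted p up to 0.0881). Srebf1 and Insig1 did not pass, at -0.08 ± 0.17 and -0.29 ± 0.11.

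**Figure D3:**
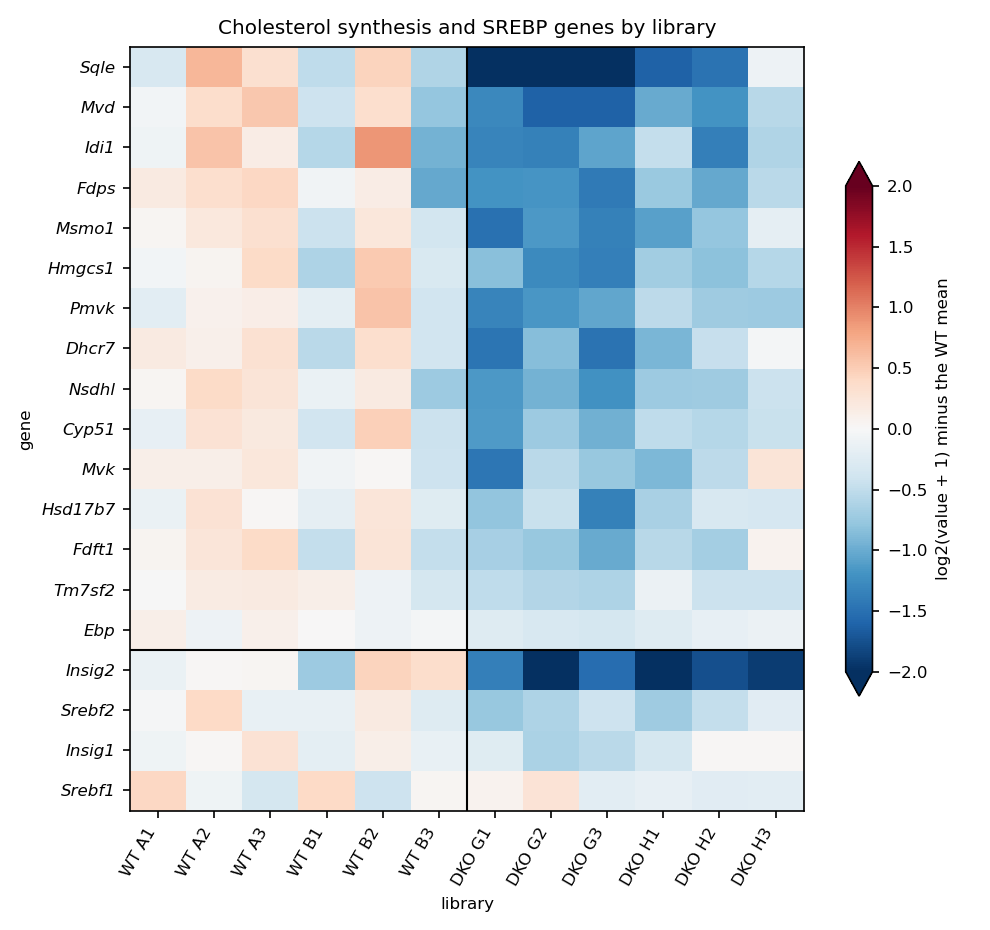
Log2 value of each gene (rows) in each library (columns) minus the mean of the WT libraries, with blue for lower and red for higher and colours saturating at 2 in either direction. The upper 15 rows are the cholesterol synthesis genes that fell and the lower 4 are SREBP regulators, and DKO G1 to G3 are bluer in the upper rows than DKO H3, whose median over all 20 genes is -0.26.

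In fatty acid and triglyceride synthesis 7 of 23 genes fell and 0 rose, with a median of -0.28 (-0.47 without WT B3). Elovl5, which elongates polyunsaturated fatty acids, stood at 5948, 7982 and 9753 in WT and at 1573, 2129 and 3908 in DKO (-1.76 ± 0.22, limma adjusted p = 9.8e-06). Fasn, fatty acid synthase, stood at 3954, 8038 and 11393 against 2407, 2680 and 3538 (-1.42 ± 0.18, limma adjusted p = 1.25e-05). Scd1, stearoyl-CoA desaturase, stood at 131130, 168610 and 225170 against 58230, 86402 and 113110 (-1.04 ± 0.21, limma adjusted p = 0.00251). In each of these 3 genes the groups were separate. Agpat2 and Acsl5, which act in triglyceride assembly and fatty acid activation, fell by 0.51 ± 0.09 and 0.45 ± 0.10. Fads2, a desaturase, and Lpin1, a phosphatidate phosphatase, did not pass (0.09 ± 0.16 and -0.20 ± 0.45).

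Among genes of lipid droplets and fatty acid uptake 2 of 24 rose and 1 fell, against 2.84% and 3.25% of all genes. The 1 lower became 4 without WT B2, 3 without WT B3, 2 without DKO G1 and 0 without WT A2, WT B1, DKO G2 or DKO H3. Lpl, lipoprotein lipase, which adult hepatocytes express at a low level, stood at 554, 970 and 2503 in WT and at 1894, 2693 and 4468 in DKO (1.27 ± 0.27, limma adjusted p = 0.00417). The groups overlapped, and in a fit of only the 12 libraries it did not pass (limma adjusted p = 0.0584). Lipe, hormone-sensitive lipase, rose by 0.49 ± 0.11.

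Of 25 apolipoproteins and genes of lipoprotein assembly 5 fell and 1 rose, with a median of -0.05, and the 5 became 3 without WT A2 or DKO G1 or G3 and 2 without WT B1. Apob, the structural protein of very low density and low density lipoproteins, stood at 155030, 158820 and 171620 in WT and at 157500, 173130 and 182230 in DKO and did not pass (0.09 ± 0.07, limma adjusted p = 0.574), except after quantile normalization. Apoe likewise stood at 0.00 ± 0.08. Angptl8, a feeding-induced regulator of lipoprotein lipase, stood at 238, 401 and 812 against 141, 188 and 222 (-1.23 ± 0.27, limma adjusted p = 0.00503). Apoc4 fell by 0.37 ± 0.06, and neither gene overlapped between the groups. Of 11 lipoprotein receptors and sorting genes 0 rose (1 without WT B3 or DKO H1) and 2 fell, Lrp5 at -0.64 ± 0.10 and Vldlr at -1.66 ± 0.36, the second at 10.7 to 59.5 normalized counts in WT and 4.34 to 16.5 in DKO.

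Bile acids are made from cholesterol by cytochromes P450 and carried across the hepatocyte by transporters of both its faces. Of 23 such genes 7 fell and 4 rose, with a median of -0.17. A fit of only the 12 libraries called 3 and 1, and 2 rose without WT A3 or DKO G2 or H1. Slc10a1, the sodium-dependent uptake transporter NTCP, stood at 7805, 9843 and 11636 in WT and at 5531, 5889 and 6652 in DKO (-0.70 ± 0.08, limma adjusted p = 1.55e-06). Cyp8b1, the sterol 12α-hydroxylase that sets the cholic acid share, stood at 6301, 10317 and 11188 against 2951, 4481 and 5076 (-1.23 ± 0.20, limma adjusted p = 0.00022). Both were separate between the groups, as was Abcb4, the canalicular phospholipid transporter (-0.39 ± 0.07).

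Of 36 xenobiotic cytochromes P450, the enzymes that oxidize drugs and foreign compounds, 11 rose and 3 fell, with a median of 0.19 (0.12 without DKO H2). Cyp2c29 stood at 40109, 46236 and 52418 in WT and at 61170, 65045 and 88595 in DKO (0.61 ± 0.11, limma adjusted p = 0.000947), and Cyp2f2, a periportal enzyme, at 25498, 27049 and 31622 against 37034, 43778 and 51768 (0.67 ± 0.10). Cyp2c55 rose from 251 to 593 in WT to 1223 to 1805 in DKO (2.01 ± 0.21, limma adjusted p = 5.14e-07), Cyp2c37 by 1.02 ± 0.21, and Cyp2d40 by 0.95 ± 0.13. These 5 genes did not overlap between the groups. Their relative Cyp2c69 went the other way, from 5.51 to 42.2 in WT to 0 to 3.45 in DKO (-3.54 ± 0.52). Because Cyp2c genes are alike, the sum over the 15 of them in the table was taken, and it was 0.51 ± 0.09 higher.

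Of 42 conjugating enzymes 9 rose and 6 fell. The glucuronosyltransferase gene Ugt1a9 stood at 741, 1553 and 4536 in WT and at 4649, 6286 and 6685 in DKO (1.94 ± 0.34), and the glutathione transferase gene Gstm3 at 1707, 3831 and 5827 against 6839, 11263 and 13659 (1.60 ± 0.26). The microsomal transferase Mgst1 was lower, at 44314, 58348 and 71295 against 31835, 33459 and 36675 (-0.80 ± 0.09, limma adjusted p = 2.15e-06). None of these 3 overlapped. The sulfotransferase gene Sult1d1 fell by 1.34 ± 0.18 and Gstt3 by 1.70 ± 0.31. Carboxylesterases, which cleave esters of drugs and lipids, counted 3 higher and 2 lower of 14, and 1 lower without WT A1, A3 or B1 or DKO H3. Ces1g stood at 4996, 5468 and 6364 in WT and at 10767, 13208 and 14646 in DKO (1.22 ± 0.12, limma adjusted p = 4.26e-07), Ces1c rose by 0.35 ± 0.08 and Ces2a fell by 0.52 ± 0.07.

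Of 37 enzymes that break down amino acids 7 fell and 1 rose, and 11 fell with values scaled to totals without Mups. Without DKO H2, 2 rose. Oat, ornithine aminotransferase of pericentral hepatocytes, stood at 10834, 19336 and 24546 in WT and at 3759, 6585 and 8215 in DKO (-1.50 ± 0.21, limma adjusted p = 3.49e-05). Gldc, of the glycine cleavage system, stood at 2874, 4266 and 7021 against 915, 1413 and 2436 (-1.49 ± 0.25). Hpd and Hgd, consecutive enzymes of tyrosine breakdown, fell by 0.80 ± 0.10 and 0.73 ± 0.11, and Ftcd, of histidine breakdown, rose by 0.44 ± 0.07. In all 5 the groups were separate. In the urea cycle 2 of 8 fell and 0 rose (1 without WT A1 or DKO H3). Cps1, its entry enzyme, stood at 95281, 103270 and 125460 in WT and at 34753, 64295 and 94699 in DKO (-0.83 ± 0.19, limma adjusted p = 0.0061), and the ornithine carrier gene Slc25a15 at -0.63 ± 0.15. Ass1, argininosuccinate synthase, did not pass (-0.06 ± 0.14).

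ATF4 is the factor that raises amino acid synthesis genes when amino acids are short. Of 24 genes of that response 6 fell and 2 rose (3 fell without DKO G3, and 2 in a fit of only the 12 libraries). Asns, given above, fell furthest, and Atf5, an ATF4-related factor of liver, stood at 3301, 3912 and 5165 in WT and at 2134, 2333 and 2738 in DKO (-0.75 ± 0.11, limma adjusted p = 6.32e-05). Shmt2, a mitochondrial enzyme of serine use, went up by 0.39 ± 0.09, and Atf4 itself did not pass (-0.16 ± 0.09, limma adjusted p = 0.335). In glucose metabolism, Pfkfb1, a switch between glycolysis and gluconeogenesis, fell by 0.58 ± 0.12. Ppp1r3b, a glycogen-targeting subunit, also fell, from 2342 to 5821 normalized counts in WT to 1287 to 2770 in DKO (limma adjusted p = 0.00364). Pck1 and Fbp1, of gluconeogenesis, did not pass (0.27 ± 0.18 and -0.00 ± 0.07).

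Plasma proteins made by hepatocytes were divided. Alb, serum albumin, stood at 1080000, 1370000 and 1810000 in WT and at 1680000, 1990000 and 2050000 in DKO, which overlap, and did not pass (0.42 ± 0.15, limma adjusted p = 0.109). Its share of all values was 5.82% in WT and 7.81% in DKO. Selenop, the selenium carrier, stood at 90077, 107600 and 118190 against 140720, 156530 and 179660 (0.58 ± 0.09, limma adjusted p = 6.97e-05). Of 26 complement genes 6 rose and 1 fell, with a median of 0.21 (0.13 without DKO H2 or H3). The 6 higher became 4 without WT A1, A2, B1 or B2 or DKO G2, H2 or H3, and 8 without WT A3. C8a, which encodes part of the lytic pore of complement, stood at 16940, 23034 and 25356 against 33602, 35846 and 45079 (0.80 ± 0.14), the protease gene C1s1 rose by 0.58 ± 0.09, and C6, of the same pore, was lower at -0.91 ± 0.23. Of 25 coagulation genes 5 rose and 1 fell. The 5 became 3 without WT A3 or B2 or DKO G1, 2 without DKO H2 or H3, and 3 in a fit of only the 12 libraries. F11, coagulation factor XI, was the gene that fell, from 1766, 2225 and 2617 to 783, 974 and 1500 (-1.13 ± 0.16, limma adjusted p = 4.95e-05). Of 28 acute phase genes 0 rose and 1 fell, with a median of 0.33 that was 0.22 without WT B1, 0.17 without DKO H2 and 0.12 without DKO H3. Without DKO G1 or H1 1 gene rose. The gene that fell was Hamp2, a hepcidin paralog, at 32.9, 109 and 189 in WT and 15.9, 20.2 and 32.5 in DKO (-2.15 ± 0.32).

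The Serpina1 genes are mouse copies of the gene for α1-antitrypsin, the inhibitor of neutrophil elastase, and lie side by side on chromosome 12. They did not fall alike. Serpina1e (103946931 to 103958975) stood at 185420, 213640 and 338840 in WT and at 12006, 76896 and 146740 in DKO (-2.23 ± 0.50, limma adjusted p = 0.00688). Serpina1d fell by 0.76 ± 0.11, Serpina1b by 0.62 ± 0.10 and Serpina1a by 0.55 ± 0.11, while Serpina1c, at 165560 to 223980 and 173480 to 237210, did not pass (0.06 ± 0.11, limma adjusted p = 0.83). The spread over DKO was widest for Serpina1e, and the sum over the family was -0.66 ± 0.14. Reads of these near-identical genes can be assigned to the wrong copy.

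Promoters of these copies are shown because C/EBP factors bind sites that resemble TTGCNNAA, which were searched on both strands in the 250 bases before each start, and because the copies differ in those letters. The stretches are from RefSeq promoter windows of GRCm38.p6, minus strand, chr12:103957075-103957134 (Serpina1e), chr12:103773749-103773808 (Serpina1d), chr12:103738317-103738376 (Serpina1b), chr12:103863740-103863799 (Serpina1a) and chr12:103905077-103905136 (Serpina1c). Capitals mark the 8 letters at the position of the match in Serpina1e.
Serpina1e: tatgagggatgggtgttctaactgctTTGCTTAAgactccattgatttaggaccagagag
Serpina1d: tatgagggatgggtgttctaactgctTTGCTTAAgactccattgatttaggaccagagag
Serpina1b: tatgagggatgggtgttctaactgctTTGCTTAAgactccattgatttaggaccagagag
Serpina1a: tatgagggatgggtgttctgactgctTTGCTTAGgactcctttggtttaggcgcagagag
Serpina1c: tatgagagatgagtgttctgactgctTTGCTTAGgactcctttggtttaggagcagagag
The first 3 are identical over the 60 bases and hold a match. Serpina1a and Serpina1c differ from them at 6 and 7 bases, and in the 8 letters by A8G, counted from 1 at the first capital, which leaves no match there. With the match, Serpina1e, Serpina1d and Serpina1b stood at -2.23, -0.76 and -0.62. Without it, Serpina1a stood at -0.55 and Serpina1c, at 0.06, did not pass. Whether the match has a part in these differences was not tested.

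Of the 259 genes chosen for naming, 192 had a promoter window and 38 of these held a match. A match was held by 19 of 72 with a window that fell, 7 of 51 that rose and 12 of 69 not called. The named genes follow a rule of choice, so these counts do not stand for all called genes. Over all called genes with a window, a match was held by 63 of 459 that fell (13.73%) and 38 of 405 that rose (9.38%). The 6 shown were picked by hand from those described above, each with its match in capitals and from the same source, and do not stand for the proportions among the 38. The coordinates are chr12:80968121-80968180 and chr19:39886771-39886830 on the minus strand for Slc10a1 and Cyp2c69, and on the plus strand chr6:138140418-138140477 for Mgst1, chr16:37580078-37580137 for Hgd, chr9:21835384-21835443 for Angptl8 and chr19:39992304-39992363 for Cyp2c37.
Slc10a1: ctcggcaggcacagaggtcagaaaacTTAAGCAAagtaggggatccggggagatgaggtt
Mgst1: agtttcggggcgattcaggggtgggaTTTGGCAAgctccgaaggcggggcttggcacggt
Hgd: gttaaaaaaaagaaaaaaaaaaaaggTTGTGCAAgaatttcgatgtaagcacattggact
Angptl8: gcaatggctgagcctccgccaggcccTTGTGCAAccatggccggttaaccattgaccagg
Cyp2c69: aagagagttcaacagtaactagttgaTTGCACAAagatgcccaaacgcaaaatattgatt
Cyp2c37: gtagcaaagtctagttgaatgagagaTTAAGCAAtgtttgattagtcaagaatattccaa
Cyp2c37 rose and the other 5 fell. A match was found in 9.56% of the 32851 windows of the table and, per gene, in 9.88% of the 12730 tested genes with a window. It was found in 0 of the 10 largest falls and 0 of the 8 largest rises that had a window. A match is a run of letters and not a measured binding site. Only 71.4% of the genes that fell and 71.9% of those that rose had a window. The shares of gene sets were therefore not tested against each other, and no conclusion is drawn from them.

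**Figure D4:**
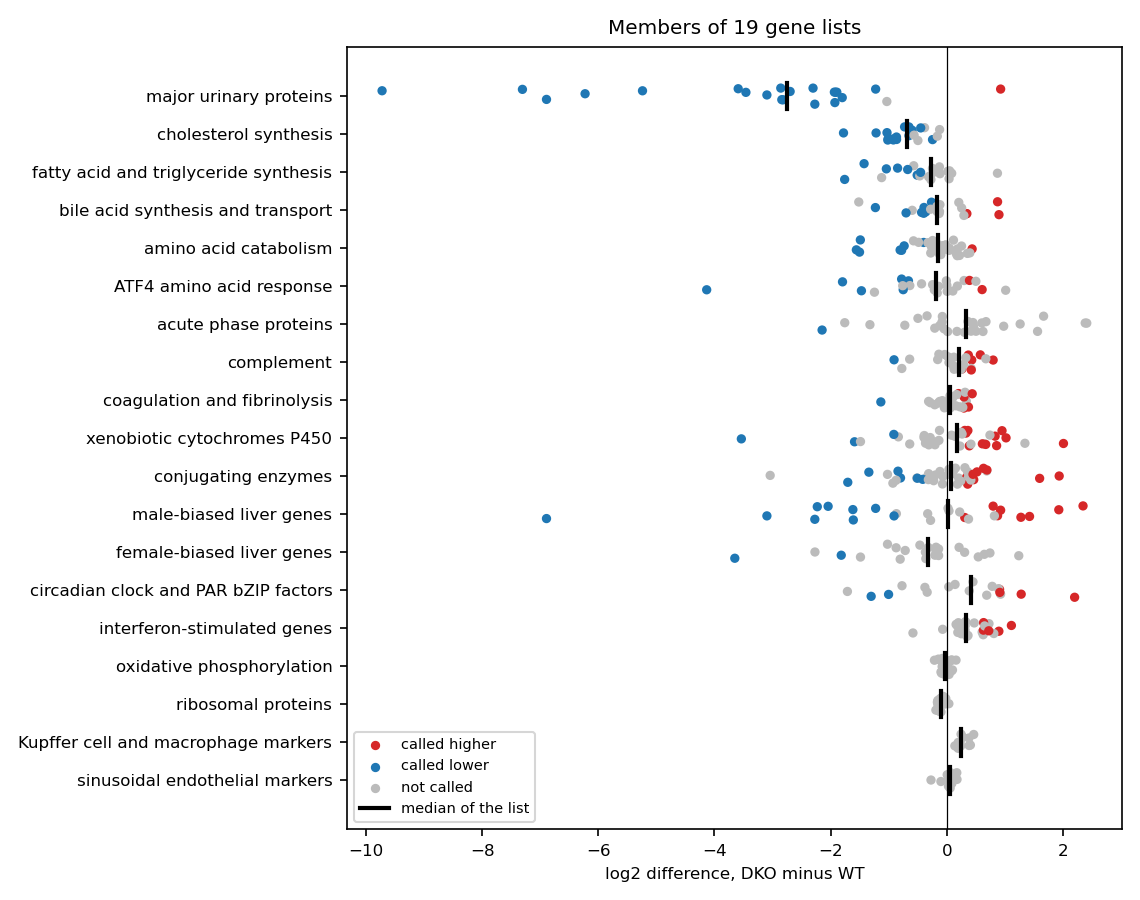
Log2 difference between DKO and WT of each tested member (points) of 19 gene lists, red for called higher, blue for called lower and grey for not called, with a black bar at the median of each list. Major urinary proteins (median -2.76) and cholesterol synthesis (median -0.69) lie to the left, and oxidative phosphorylation and ribosomal proteins lie close to 0 with no member called.

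Clock genes were measured at midday in all groups. Of 18 clock and PAR bZIP genes 4 rose and 2 fell, with a median of 0.42. Nfil3, a repressor of PAR bZIP targets, stood at 304, 495 and 676 in WT and at 176, 236 and 330 in DKO (limma adjusted p = 0.00118), and the groups overlapped. The 4 higher became 2 without WT A3, B2 or B3 or DKO G2 or H3, and the 2 lower became 4 without WT B1. Per2 ranged from 19.3 to 609 in WT and from 604 to 1263 in DKO (2.20 ± 0.59), Per3 stood at 1.28 ± 0.34, Dbp at 0.91 ± 0.27 and Arntl, the gene of BMAL1, at -1.30 ± 0.39, with limma adjusted p from 0.0226 to 0.0459. None of these 4 passed in a fit of only the 12 libraries. Per2 also lost its call without WT B1, Per3 without WT A3, B2 or B3 or DKO G2 or H3, and Dbp and Arntl without any library other than WT A1, WT B1 or DKO H2.

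Of 27 interferon-stimulated genes 5 rose and 0 fell (3 rose without WT A2 or DKO G1), with 25 differences above 0 and a median of 0.33. Ifit1 stood at 89, 109 and 226 in WT and at 224, 271 and 325 in DKO (1.11 ± 0.25), Oas2 at 65.4, 73.1 and 95.5 against 99.5, 143 and 192 (0.90 ± 0.18), and the GTPase gene Gbp7 rose by 0.63 ± 0.15. Ifit1 overlapped by 1 narrow margin and Oas2 did not overlap. Markers of Kupffer cells and macrophages lay in the same direction, with 13 of 13 differences above 0 (0.14 to 0.46, median 0.24) but 0 called (3 without DKO H1 and 1 without WT B3), and their summed level was 9690 to 16640 normalized counts in WT and 10730 to 16840 in DKO. Their part in the interferon result was not tested. In the lists of 12 sinusoidal endothelial, 12 hepatic stellate, 12 T and NK cell and 10 B and plasma cell markers no gene was called. Monocyte and recruited macrophage markers were above 0 in 8 of 10, with 1 called, Ccl2, a chemokine (1.43 ± 0.38), and neutrophil markers in 8 of 9, with 1 called, Retnlg (1.73 ± 0.48). Ccl2 lost its call without WT A3 or DKO G1 and Retnlg without WT A1, A3 or B2 or DKO H2 or H3. The summed neutrophil markers were 66.2 to 154.3 normalized counts in WT and 125.6 to 460.0 in DKO, and the monocyte markers 1976 to 3139 and 2036 to 3248. Their part in the interferon result was not tested either.

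Cholangiocyte markers went both ways, with 3 higher and 3 lower of 14, the 3 higher becoming 1 without WT A1, A3 or B1 or DKO G1, H1 or H3. Spp1, osteopontin, stood at 894, 1014 and 1236 in WT and at 2233, 3126 and 5279 in DKO (1.65 ± 0.21, limma adjusted p = 9.9e-06). Sox9 stood at 70.8, 142 and 171 against 23.1, 40.2 and 51.2 (-1.75 ± 0.24), and Epcam at 32.5, 38.8 and 48.3 against 11.1, 17.1 and 30.5 (-1.07 ± 0.26), all 3 without overlap. The defining markers of the labelled tissue were present, since the 13 hepatocyte markers summed to 2069000 to 2908000 normalized counts in WT and 2571000 to 3408000 in DKO. Of these 1 was called higher and 2 lower, and 0 either way without WT B1 or in a fit of only the 12 libraries. The higher call was kept only without WT A3 or DKO G1, G3 or H1, and the 2 lower became 0 without DKO G1 and 1 without WT A1, A2, B2 or B3 or DKO G3. Alas2, the erythroid enzyme of heme synthesis, stood at 1505, 2500 and 2926 in WT and at 659, 817 and 1160 in DKO (-1.38 ± 0.15, limma adjusted p = 1.26e-06), but the other 5 erythroid markers tested were not called. Hfe2, the hepcidin coregulator hemojuvelin, fell by 0.72 ± 0.13. No member was called among 28 genes of oxidative phosphorylation (median -0.03), 26 of ribosomal proteins (median -0.10), 13 mitochondrially encoded transcripts (median -0.07) and 20 of the unfolded protein response (median -0.07), except 1 ribosomal protein gene lower without DKO H2 or H3 and 1 of the unfolded protein response lower without WT B1. Of 25 hepatocyte transcription factors 3 fell and 0 rose, Atf5 among them (1 fell without WT B1 or DKO G1 or G3, and 1 rose without WT A1 or B1), and Hnf4a did not pass (-0.05 ± 0.10).

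The last question is what distinguishes DKO from each single group. Against Cebpa-KO, 16 genes were higher (0.0808% of those tested) and 24 lower (0.121%) in DKO, and against the libraries labelled Trib1-KO 2901 were higher (14.6%) and 3105 lower (15.7%). Cebpa itself stood at 82.4 ± 18.1 (SD) in DKO and 82.2 ± 17.4 in Cebpa-KO. Of the 40 genes called against Cebpa-KO only 13 were also called against WT, and most genes described here are from those 13. An exception is the long noncoding RNA gene Gm4316, taken for its smallest adjusted p against Cebpa-KO (limma adjusted p = 4.76e-05). It stood at 316 ± 67.2 (SD) in WT, 1387 ± 478 in Cebpa-KO and 283 ± 79.3 in DKO. In the libraries labelled Trib1-KO it was highest, at 2029 ± 591. The gene was not called in DKO against WT (limma adjusted p = 0.789). Scd1 was among the genes called against both WT and Cebpa-KO. It stood at 175160 ± 36660 in WT, 189040 ± 59410 in Cebpa-KO, 86232 ± 22660 in DKO and 359960 ± 97020 in the libraries labelled Trib1-KO, and DKO was -1.12 ± 0.21 against Cebpa-KO (limma adjusted p = 0.017). Hamp2 behaved likewise, at 114.1 ± 66.6, 71.8 ± 13.2, 21.4 ± 6.13 and 104.3 ± 32.7 in the same order (-1.72 ± 0.32 against Cebpa-KO, limma adjusted p = 0.02). For both, the DKO mean was the lowest of the 4 groups.

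Others of the 13 genes called against both lay in DKO between Cebpa-KO and WT. Serpina1e stood at 238930 ± 60040 (SD) in WT, 10363 ± 6409 in Cebpa-KO and 74110 ± 58150 in DKO, which was 2.53 ± 0.50 above Cebpa-KO (limma adjusted p = 0.029). Mup3 stood at 146170 ± 25080, 13827 ± 5251 and 32460 ± 14540 (1.20 ± 0.25 above Cebpa-KO, limma adjusted p = 0.035), and Trib1 was 1.13 ± 0.24 above Cebpa-KO (limma adjusted p = 0.0463). Hsd11b1, which regenerates active glucocorticoid, and the claudin gene Cldn14 were chosen after their values were seen. Hsd11b1 stood at 8724 ± 904 in WT, 1740 ± 264 in Cebpa-KO and 2971 ± 884 in DKO (0.73 ± 0.14 above Cebpa-KO, limma adjusted p = 0.0202). Cldn14 stood at 146 ± 38.3, 3.91 ± 3.63 and 39.8 ± 34.9 (3.04 ± 0.52 above Cebpa-KO, limma adjusted p = 0.00754).

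For genes not called between DKO and Cebpa-KO, their differences from WT are given side by side, and they share the WT libraries. Meg3 was 3.60 higher in DKO and 4.24 in Cebpa-KO, and -2.01 in the libraries labelled Trib1-KO. Insig2 was -1.79, -2.09 and 1.40 in that order, Asns -4.13, -4.51 and 2.23, Fasn -1.42, -1.41 and 0.68, and Cyp2c29 0.61, 0.72 and -3.96. Ifi27l2b was higher in all 3, at 2.69, 2.56 and 2.83, and Sqle was lower in all 3, at -1.78, -2.15 and -1.10. A difference between DKO and Cebpa-KO that does not pass does not show that the groups are alike.

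**Figure D5:**
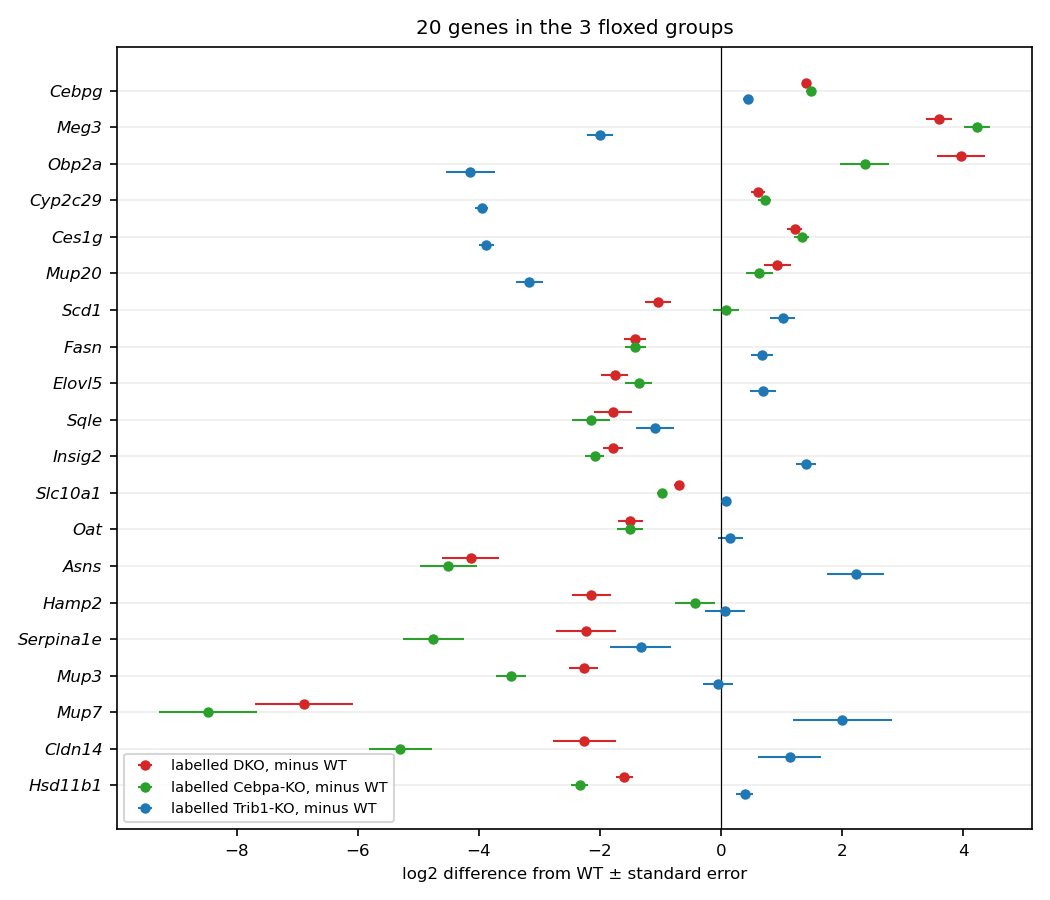
Log2 difference from WT with its standard error for 20 genes in DKO (red), Cebpa-KO (green) and the libraries labelled Trib1-KO (blue), all measured against the same 6 WT libraries. Scd1 and Hamp2 are lower in DKO than in Cebpa-KO, Serpina1e, Mup3, Cldn14 and Hsd11b1 are higher, and Meg3, Obp2a, Cyp2c29 and Ces1g lie on opposite sides of 0 in DKO and Trib1-KO.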

How the data were processed

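Polyadenylated RNA of 24 whole livers was sequenced with a stranded kit, per the labels' protocols. The authors deposited a table of normalized counts (unit here: signal), made with Salmon, DESeq2 and GRCm38.p6, per the submitters' processing notes. Read from the values, these are estimated counts divided by a size factor per library. Of the low values, 60.7 to 66.2% per library lay within 0.02 of whole reads, so no count test was used. Every group has mice of both cohorts in the labels, but column names give the group and no mouse, so no within-cohort values could be had. Symbols and coordinates are from GENCODE M21 (99.3% of identifiers found) and promoters from RefSeq.

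log2(value + 1) of genes with a mean of at least 1 was fitted with limma 3.58.1 (R 4.3.3) and an intensity trend, with 1 mean per group over all 24 libraries. Genes with a Benjamini-Hochberg adjusted p under 0.05 were called. P values measure the spread between these mice. Named genes are Cebpa and Trib1, the 12 largest rises and falls without overlap and with a mean of at least 10, the 12 highest in WT, and from each list up to 6 called and 2 uncalled members. Some genes are not reported here. The genes and lists were chosen with earlier results of these data known. Alternatives were other filters, pseudocounts, scalings, weights, a block for column number, and leaving out each library. Simulated data for this comparison had 19810 genes, with the changed genes drawn only from those with a WT mean of at least 10. Of these, 31 of 50 lowered by 1 on the log2 scale were called, 45 of 50 lowered by 2, 35 of 50 raised by 1 and 44 of 50 raised by 2. Of unchanged genes 8 of 19610 were called, which made 4.91% of all calls in the simulation. Each gene was drawn independently, so differences that many genes of a mouse share were not simulated. Recovery of changes in lower genes was not measured. The precision of low genes is limited by depth, and no interval for counting error is given because reads were not recovered.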

Additional observations from a re-analysis of the deposited data

Results flagged for a closer look

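Of 361 groups of 6 libraries looked at for the genes considered, 16 (4.4%) had 1 library far from the other 5, where chance gives about 1 in 20. The gap of that library to its nearest neighbour, as a share of the group's range on the log2 scale, was above Dixon's critical value for 6 values. WT B3 was that library in 8 of the 16. In it Mup7 stood at 30280 normalized counts against 205800 to 450200 in the other WT libraries, Mup3 at 95860 against 150400 to 164300, Mup16 at 11040 against 30810 to 54870 and Mup4 at 1.756 against 4.54 to 7.078. Also in WT B3, the cholesterol synthesis gene Fdps stood at 2437 against 4721 to 6612, and 3 genes were high. Trf, transferrin, stood at 409700 against 276100 to 307800, Serpina1a at 141700 against 112300 to 121900, and the interferon-stimulated gene Oas2 at 95.48 against 65.44 to 74.54.

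In WT A2, Igf1 was low at 8532 against 10110 to 10440, and so was the immunoproteasome gene Psmb9 at 150.3 against 202.8 to 235.8. In DKO H2, Meg3 was low at 600.8 against 1198 to 1364 in the other DKO libraries, while the lipid droplet gene Plin5, at 1897 against 733.3 to 1047, and the nuclear receptor gene Nr1i2, at 2333 against 1364 to 1667, were high. Trib1 was low in DKO H1, at 286.4 against 661.6 to 1077. Ddb1, a subunit of the COP1 ligase complex, was high in DKO G2, at 6088 against 5044 to 5293. Cyp2e1 was low in DKO H3, at 154900 against 194300 to 221500.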

How the results depend on the processing

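The counts of 563 genes higher and 643 lower became 378 and 415 in a fit of only the 12 libraries, which estimates the spread from fewer samples, and 238 and 309 at an adjusted p under 0.01. Leaving out each library in turn gave 437 to 526 higher and 514 to 640 lower. The other alternatives that kept all libraries gave 418 to 642 higher and 538 to 741 lower, with 642 and 557 at equal library totals, 418 and 741 at totals without Mups, and 446 and 538 without a filter. With the column number as a replicate block 614 and 691 were called. The numbers are shared by name alone, no paired analysis was possible because the labels do not tie a number to an animal, litter or day, and the block is given only as an alternative. Of 165 named genes called, 119 kept the call at an adjusted p under 0.05 under all of 11 alternatives and without each of the 12 libraries, 43 lost it under at least 1 of those alternatives and 39 without 1 library, and 0 changed direction. Of 94 named genes not called, 7 passed under at least 1 alternative. Depth limits genes of a few normalized counts, whose log2 differences depend on the pseudocount.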

Other observations

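A pair of long noncoding RNA genes, Gm28076 and Gm28078, was chosen after the values were seen, since predicted genes are outside the naming rule. Both lie on chromosome 7 (GRCm38), Gm28076 at 37137011 to 37140382 and Gm28078 at 37119993 to 37128692 on the minus strand, on the same chromosome as Cebpa. Both were listed at 0 in all WT libraries and in all libraries labelled Trib1-KO. In DKO, Gm28076 stood at 11.4 at the lowest, 15.6 at the median and 17.5 normalized counts at the highest, and Gm28078 at 24.7, 31.4 and 34.2. In Cebpa-KO, Gm28076 stood at 11.6 ± 3.65 (SD) and Gm28078 at 35.8 ± 8.80. Both were thus measured in the 2 groups that carry floxed Cebpa, and no fold is given against groups listed at 0.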
